A study of Homo sapiens with 4 samples.

Results

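The 10 genes described here are the core of the G1/S machinery: the kinases CDK4, CDK6 and CDK2, the D cyclins CCND1, CCND2 and CCND3, the E cyclins CCNE1 and CCNE2, the pocket protein RB1 and the transcription factor E2F1. They were taken by symbol, 10 of 33538 listed genes. The set was chosen by a value measured in these libraries, the higher CDK6 level under APC knockdown, so that the CDK6 difference is given as a description and supports nothing by itself. The cells were HCEC 1CT, a human colonic epithelial line that carries TERT and CDK4 transgenes in every group. APC was knocked down with an shRNA (shAPC), scrambled shRNA served as the control (shScr), and cells were selected with puromycin and profiled by 10x Genomics single-cell RNA sequencing at day 3 or day 7. The design had 4 groups, both shRNAs at both days, with 1 library each, so that no difference below has a replicate check, no test between groups was possible and no p-value is given.

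Cyclin D binds CDK4 or CDK6 in G1, and the complex phosphorylates RB1, which otherwise holds E2F factors inactive. Released E2F switches on genes for DNA replication and for cyclin E, whose complex with CDK2 completes RB1 phosphorylation and starts S phase. Inhibitors of the INK4 family block CDK4 and CDK6 alone, and those of the CIP/KIP family act on a wider range of kinases. APC is part of the complex that destroys beta-catenin, the co-activator of canonical Wnt signalling.

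Levels are UMIs (distinct molecules) summed over the kept cells of a library and divided by all their UMIs, as CPM (UMIs per 1000000). The minimum for a cell was 200 genes and 500 UMIs, and its mitochondrial UMIs had to stay under 5%. This left 788 to 2600 cells and 28451455 to 39797418 UMIs per library. The median depth ran from 1330 UMIs per cell in shScr day 7 to 49685.5 in shAPC day 3. Brackets after CPM, ratios and shares hold 95% intervals (exact Poisson for CPM, exact binomial for ratios and shares), which cover counting error only. APC, the target of the knockdown, was lower in both shAPC libraries (16.1 CPM in shScr day 3, 5.52 in shAPC day 3, 19.1 in shScr day 7 and 6.61 in shAPC day 7). Pairs of libraries shared 1 to 19 cell barcodes. No gene of an 11-gene epithelial marker list reached 20 CPM in any library, and its sum was 25.1 to 49.5 CPM. KRT20 and CDX2 were at 0 UMIs in all 4 libraries and EPCAM and CDH1 had 0 to 2, whereas 6 of 7 mesenchymal markers reached 20 CPM. The epithelial genes KRT8 (299 to 678 UMIs per library), CLDN7 (178 to 592), KRT18 (86 to 249) and KRT19 (73 to 200) were detected at low level. Of the defining epithelial transcripts, those of keratins 8, 18 and 19 and of CLDN7 were thus present and those of EPCAM, CDH1, KRT20 and CDX2 at or near 0.

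CDK6 (ENSG00000105810) lies on the minus strand of chromosome 7, from 92604921 to 92836573 in the GENCODE 44 annotation of GRCh38. The 250 bases before its start at chr7:92836574-92836823 are shown because CDK6 is the gene with the largest shAPC/shScr ratio of the set, and the 100 bases before the start of E2F1 at chr20:33686386-33686485 because they hold the E2F matches found among the members. Both are RefSeq sequences of GRCh38.p14 on the minus strand, 5′ to 3′, and capitals mark matches to an E2F motif.
CDK6: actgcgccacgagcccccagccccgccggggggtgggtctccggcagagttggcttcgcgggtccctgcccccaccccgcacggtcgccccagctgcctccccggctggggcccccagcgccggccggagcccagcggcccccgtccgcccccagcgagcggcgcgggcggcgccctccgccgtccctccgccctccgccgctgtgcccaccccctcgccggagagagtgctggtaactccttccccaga
E2F1: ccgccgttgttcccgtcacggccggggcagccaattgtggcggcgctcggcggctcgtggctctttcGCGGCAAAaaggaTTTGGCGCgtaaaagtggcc

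RefSeq promoter windows of 300 bases (250 before to 50 after a start) were on hand for 6 members, with 9 windows in all. An E2F motif was searched on both strands as TTTCCCGC, TTTGGCGC, TTTCGCGC or TTTGCCGC, a TCF/LEF motif as CTTTGAT or CTTTGAA, and an AP-1 motif as TGANTCA. E2F1 held 2 E2F matches, at -33 and -20 from its start, while 3.31% of 35116 windows in the table held at least 1. Neither CDK6 window held a match to any of the 3 motifs, which 3.31% (E2F), 6.86% (TCF/LEF) and 7.71% (AP-1) of all windows did. These matches describe letters only.

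CDK6 was the member that differed most between shAPC and shScr, at both days. Its level was 18.7 CPM (17.4 to 20.1) in shScr day 3, 88.9 (85.8 to 92.1) in shAPC day 3, 25.6 (23.9 to 27.5) in shScr day 7 and 77.0 (73.8 to 80.3) in shAPC day 7. Both shAPC libraries were above both shScr libraries. The ratio was 4.76-fold at day 3 (log2 2.25, 2.14 to 2.37) and 3.00-fold at day 7 (log2 1.59, 1.47 to 1.71). Among all genes that reached 20 CPM in either library of a day, CDK6 ranked 26 of 5175 at day 3 and 4 of 4573 at day 7. Its shScr day 3 level was below 20 CPM, so that at day 3 it passed this minimum only through the library where it was high.

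The median log2 ratio over all genes that reached 20 CPM in either library was 0.28 at day 3 (SD across genes 0.44), against -0.10 (SD 0.38) at day 7. The genome-wide values use log2 of CPM plus 1. The members are therefore read beside these medians. Scaling by TMM factors in place of total UMIs moved the day 3 median to -0.13 and the CDK6 ratio to 1.87. Under total UMIs the day 3 median was 0.14 with no minimum level and 0.12 among genes of at least 100 CPM. Of the 10 members, 6 passed the 20 CPM minimum at each day (CDK4, CDK6, CCND1, CCND2, CCND3 and RB1). CCND2, like CDK6 at day 3, passed only through its shAPC level. At day 3, 1 member (CDK6) was at least 2-fold higher in shAPC, where 3.86% of all genes were, and 0 were at least 2-fold lower, where 0.425% were. At day 7, 2 members (CDK6 and CCND2) were at least 2-fold higher, against 0.787% of all genes, and 0 were at least 2-fold lower, against 1.77%. The median log2 ratio over the 6 members that passed the minimum was 0.46 at day 3 and 0.03 at day 7.

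**Figure D1:**
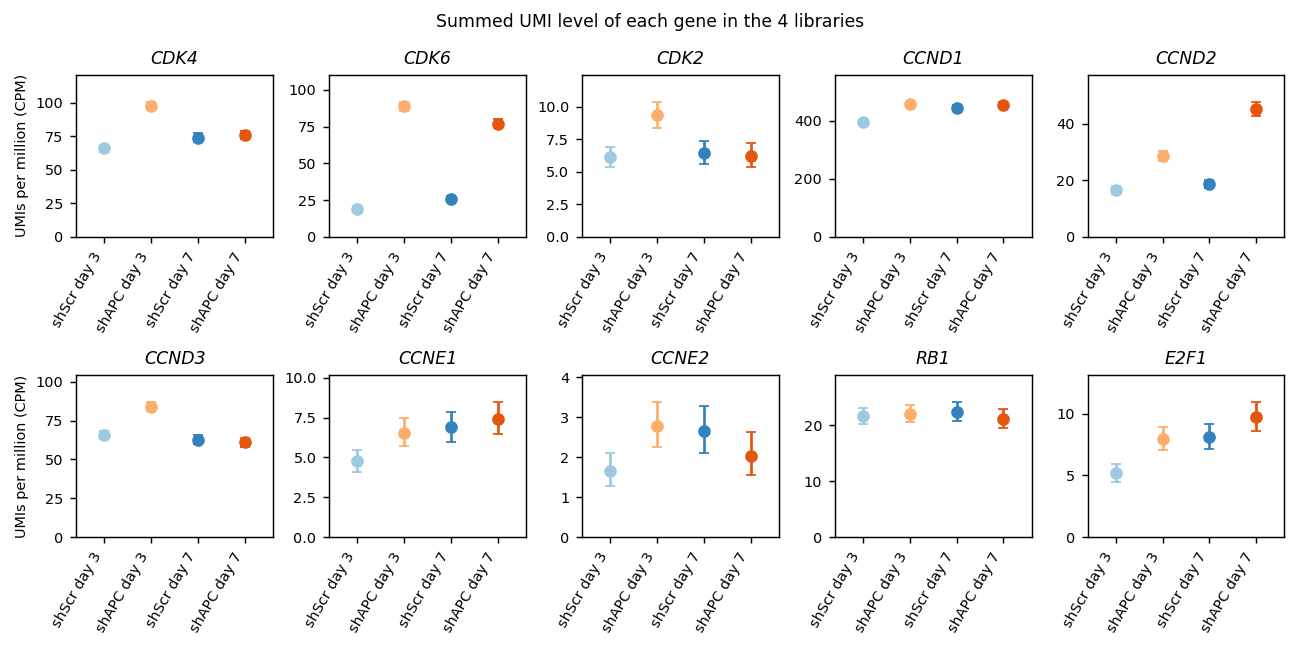
Level of each of the 10 genes in CPM (vertical axis, starting at 0 and scaled per gene) in the 4 libraries (horizontal axis); points are the summed level of 1 library and bars are 95% Poisson intervals for counting error. CDK6 stood at 88.9 and 77.0 CPM in the shAPC libraries against 18.7 and 25.6 in the shScr libraries, and RB1 lay between 21.1 and 22.4 in all 4.

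CDK4, the kinase that shares the D cyclins with CDK6 and that the line carries as a transgene, differed far less. Its level was 66.1 CPM in shScr day 3, 97.7 in shAPC day 3, 74.1 in shScr day 7 and 76.0 in shAPC day 7. Only the shAPC day 3 library stood above the others. CDK4 had log2 ratios of 0.56 (0.49 to 0.64) and 0.04 (-0.05 to 0.12) at days 3 and 7, and at day 3 it was 0.18 under TMM scaling. Whether these counts include UMIs of the CDK4 transgene was not tested, and any such UMIs could not be told apart from those of the endogenous gene. CDK4 lies on chromosome 12 from 57747727 to 57756013, minus strand.

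The share of CDK6 among CDK4 and CDK6 UMIs does not depend on the scaling between libraries. It was 22.0% (20.6 to 23.5) in shScr day 3, 47.6% (46.4 to 48.9) in shAPC day 3, 25.7% (24.2 to 27.3) in shScr day 7 and 50.3% (48.8 to 51.8) in shAPC day 7. Summed over the kept cells, CDK4 thus gave most of the UMIs of the pair in shScr and about as many as CDK6 in shAPC. The balance in shAPC differed with the cells taken. In shAPC day 7 cells of 2000 to under 10000 UMIs, CDK6 was 56.0 CPM and CDK4 96.4. In those of 10000 to under 30000 UMIs, CDK6 was 93.2 CPM and CDK4 74.3. The summed level of both kinases was 84.8 CPM in shScr day 3, 187 in shAPC day 3, 99.7 in shScr day 7 and 153 in shAPC day 7.

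**Figure D2:**
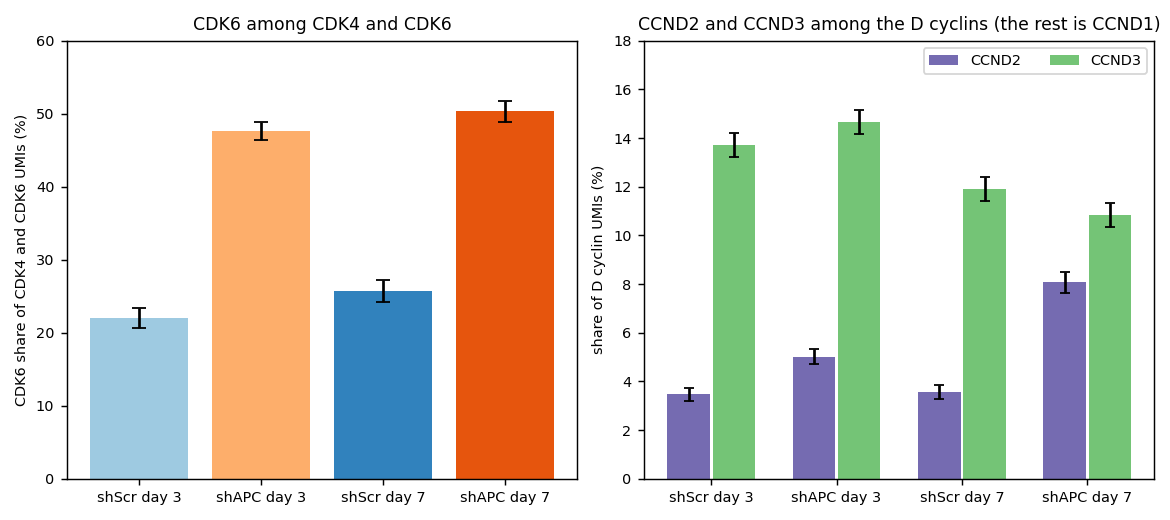
Left, CDK6 as a percent of CDK4 and CDK6 UMIs in each library; right, CCND2 and CCND3 as a percent of all D cyclin UMIs, with bars for 95% binomial intervals. CDK6 made up 47.6% and 50.3% in shAPC against 22.0% and 25.7% in shScr, and CCND2 reached 8.07% in shAPC day 7.

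Among the D cyclins, the regulatory subunits of CDK4 and CDK6, only CCND2 was at least 2-fold higher in shAPC, and only at day 7. CCND2 stood at 16.5 CPM (15.3 to 17.8) in shScr day 3, 28.6 (26.9 to 30.4) in shAPC day 3, 18.7 (17.2 to 20.3) in shScr day 7 and 45.4 (42.9 to 47.9) in shAPC day 7. Both shAPC libraries were above both shScr libraries, with shAPC day 7 highest. CCND2 had log2 ratios of 0.79 (0.65 to 0.94) and 1.28 (1.14 to 1.42) at days 3 and 7, a 1.73-fold and a 2.43-fold difference, and the second ranked 16 of 4573. The day 3 value was 0.41 under TMM scaling, but 1.03 as a mean over cells and 1.06 with cells thinned to 2000 UMIs, where it passes 2-fold.

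CCND1, which had the most UMIs of the D cyclins, was 395 CPM in shScr day 3, 460 in shAPC day 3, 446 in shScr day 7 and 456 in shAPC day 7. The shScr day 3 library was the lowest and the others lay close together. The log2 ratio of CCND1 was 0.22 at day 3, below the median of all genes, and 0.03 at day 7. The day 3 value turned to -0.16 under TMM scaling and -0.15 under DESeq2 size factors, but was 0.41 with cells thinned to 2000 UMIs. The day 7 value was 0.32 as a mean over cells. CCND3 was 65.4, 83.9, 62.7 and 61.0 CPM in the same order of libraries. Its log2 ratio was 0.36 at day 3, turning to -0.02 under TMM scaling, and -0.04 at day 7.

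CCND1 gave 80.3% to 84.6% of all D cyclin UMIs in the 4 libraries. The CCND2 share was 3.46% (3.21 to 3.73) in shScr day 3, 5.00% (4.70 to 5.31) in shAPC day 3, 3.55% (3.27 to 3.84) in shScr day 7 and 8.07% (7.65 to 8.50) in shAPC day 7. CCND2 thus took a larger share in shAPC at each day by a measure that no scaling alters. The sum of the D cyclins was 477, 572, 527 and 563 CPM in the same order, a narrower range than that of CDK4 and CDK6 together.

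RB1 encodes the substrate of these kinases. Its level was 21.6 CPM in shScr day 3, 22.0 in shAPC day 3, 22.4 in shScr day 7 and 21.1 in shAPC day 7, with overlapping intervals in all 4. Its log2 ratio was 0.03 (-0.12 to 0.17) at day 3, turning to -0.35 under TMM scaling, -0.28 as a mean over cells and -0.58 with cells thinned to 2000 UMIs, and -0.09 (-0.25 to 0.07) at day 7, where it was -0.35 thinned. The thinned values rest on few UMIs. RB1 was then found in 41 shScr and 21 shAPC cells at day 3, and in 54 and 40 at day 7. The median of all genes at day 3 also fell under TMM scaling, from 0.28 to -0.13. No interval was computed for the ratios under these alternatives. As point values only, the even summed levels of RB1 did not carry over to every way of weighting cells and libraries.

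E2F1, both E cyclins and CDK2 were of low level. E2F1 was 5.18 CPM in shScr day 3, 7.93 in shAPC day 3, 8.13 in shScr day 7 and 9.74 in shAPC day 7, with log2 ratios of 0.61 (0.35 to 0.88) and 0.26 (0.01 to 0.51). The day 3 value of E2F1 was 0.23 under TMM scaling, 0.06 as a mean over cells and turned to -1.35 with cells thinned to 2000 UMIs, where few UMIs remain. CCNE1 ran from 4.75 to 7.42 CPM and its log2 ratios were 0.46 (0.18 to 0.75) and 0.11 (-0.17 to 0.39). CCNE2 ran from 1.66 to 2.78 CPM, from 58 to 97 UMIs per library, with log2 ratios of 0.74 (0.28 to 1.22) and -0.38 (-0.89 to 0.12). CDK2, the partner of the E cyclins, ran from 6.11 to 9.33 CPM, with log2 ratios of 0.61 (0.37 to 0.86) and -0.05 (-0.35 to 0.25). For CCNE1, CCNE2 and CDK2 the day 7 intervals include 0, so that a difference was not detectable at this depth.

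**Figure D3:**
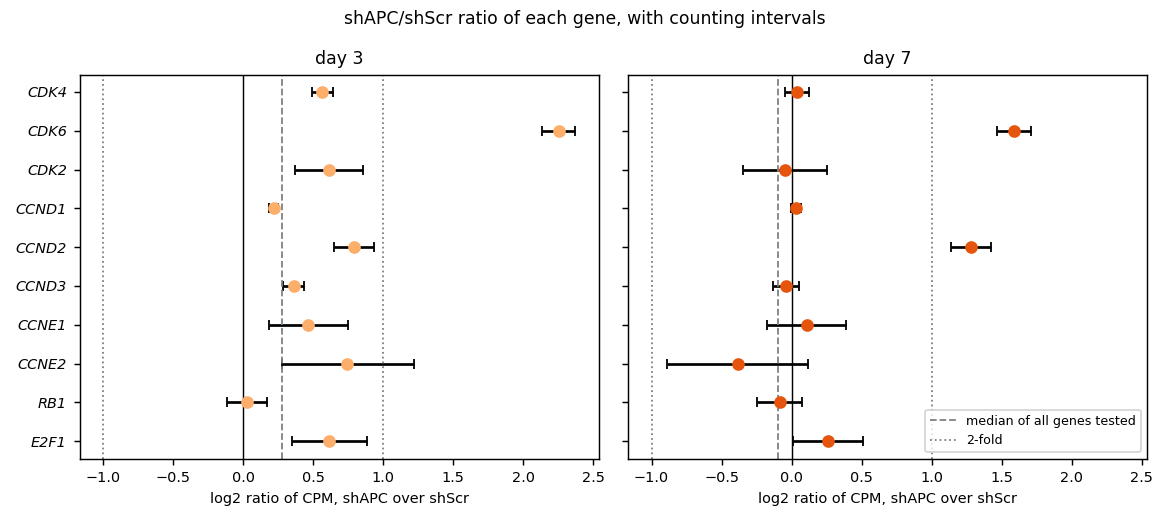
log2 ratio of CPM, shAPC over shScr (horizontal axis), for each of the 10 genes at day 3 (left) and day 7 (right), with 95% intervals for counting error; the dashed line is the median of all genes tested and the dotted lines mark 2-fold. CDK6 lay past the 2-fold line at both days (2.25 and 1.59) and CCND2 at day 7 (1.28).

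Between the days, CDK6 was higher at day 7 than at day 3 within shScr (log2 ratio 0.46, 0.31 to 0.60) and lower within shAPC (-0.21, -0.29 to -0.13), where the medians of all genes were 0.05 and -0.34. Under TMM scaling the value within shAPC turned to 0.10, and as a mean over cells the value within shScr turned to -0.12. CCND2 had a log2 ratio of 0.67 (0.54 to 0.79) over time within shAPC, which was 0.24 as a mean over cells. Within shScr it was 0.18 (0.01 to 0.34), turning to -0.56 as a mean over cells and -0.075 with thinned cells. Comparisons over time and between shRNAs share libraries and are given side by side only.

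The UMIs of CDK6 were spread over many cells. Each cell was thinned at random to 10000 UMIs, shallower cells being left out (351 in shScr day 3, 212 in shAPC day 3, 1681 in shScr day 7 and 551 in shAPC day 7). The share of cells with a CDK6 UMI was then 16.7% (14.2 to 19.6) in shScr day 3, 53.6% (49.5 to 57.8) in shAPC day 3, 22.1% (19.4 to 24.9) in shScr day 7 and 52.2% (48.9 to 55.5) in shAPC day 7. Without thinning it was 36.4%, 71.4%, 19.0% and 55.3%, in libraries whose depth differed. At 2000 UMIs per cell it was 3.89%, 13.8%, 5.18% and 12.5%, so that the shAPC libraries were the higher at either depth. Cells with 3 or more CDK6 UMIs at 10000 UMIs were 0.915% in shScr day 3, 8.51% in shAPC day 3, 0.435% in shScr day 7 and 6.69% in shAPC day 7. No cell type known to lack CDK6 was at hand in these cultures, so that the share due to free RNA was not measured.

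CCND2 was less even over cells than CDK6. At 10000 UMIs per cell, 12.4%, 15.1%, 13.7% and 23.9% of cells held a CCND2 UMI in the same order of libraries. The variance of its UMIs over their mean, which is 1 under random sampling alone, was 1.68, 2.20, 1.76 and 2.88, against 1.26, 1.34, 1.11 and 1.24 for CDK6. The 5% of cells with the most CCND2 UMIs held 47.0% to 60.6% of them. The share of cells with a CCND2 UMI was 27.9% (23.9 to 32.1) among cells with a CDK6 UMI and 19.6% (16.0 to 23.6) among those without in shAPC day 7. In shAPC day 3 it was 18.8% (14.6 to 23.6) and 10.9% (7.40 to 15.2), with intervals that overlap only from 14.6 to 15.2. In shScr day 3 it was 14.1% and 12.1%, and in shScr day 7 13.8% and 13.7%, with intervals that overlap widely. These differences were not tested, and overlap of intervals is no test. CCND1 had a ratio of variance to mean of 4.93 in shAPC day 3 and 2.37 to 2.97 in the others.

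**Figure D4:**
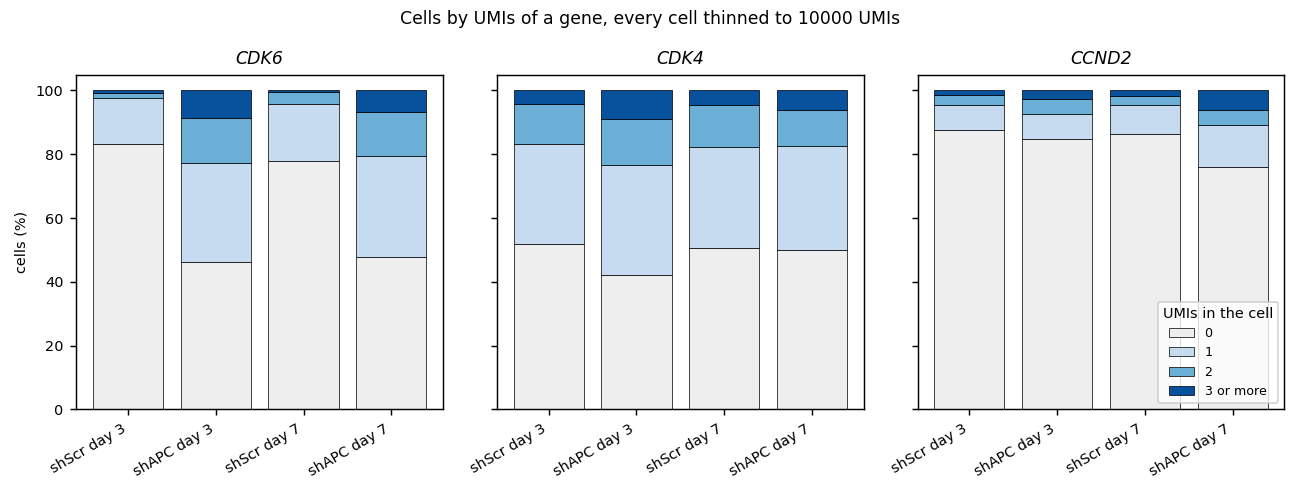
Percent of cells (vertical axis) with 0, 1, 2 or 3 and more UMIs of CDK6, CDK4 or CCND2 in each library, every cell thinned to 10000 UMIs. Cells without a CDK6 UMI made up 46.4% and 47.8% of the shAPC libraries against 83.3% and 77.9% of the shScr libraries.

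Because the depth of cells differed between libraries, CDK6 was also compared within ranges of depth. In cells of 2000 to under 10000 UMIs the log2 ratio was 2.15 (1.03 to 3.41) at day 3, on 30 and 9 UMIs, and 2.20 (1.35 to 3.13) at day 7. In cells of 10000 to under 30000 UMIs it was 1.48 (0.86 to 2.09) and 1.79 (1.61 to 1.98). In cells of at least 30000 UMIs it was 2.27 (2.15 to 2.39) and 1.29 (1.13 to 1.45). CDK6 was higher in shAPC in each of these ranges. CCND2 was higher in each range as well, by 1.99, 1.02 and 0.78 at day 3 and by 2.34, 1.45 and 0.98 at day 7. The 2-fold difference of CCND2 at day 7 was thus not met in the deepest cells. CCND1 was 0.42, 0.65 and 0.21 at day 3 and 0.32, 0.11 and -0.06 at day 7 over the same ranges.

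Cells were called G1, S or G2M from the S and G2M gene lists supplied with Seurat, on counts thinned to 2000 UMIs and without CCNE2, the member on those lists. Cells under 2000 UMIs had no call, which left out 217 in shScr day 3, 115 in shAPC day 3, 1402 in shScr day 7 and 391 in shAPC day 7. For shScr day 7 this left 1198 of 2600 kept cells. Of the cells with a call, G1 made up 74.5% in shScr day 3, 71.0% in shAPC day 3, 65.9% in shScr day 7 and 73.2% in shAPC day 7. The calls rest on sparse counts and free RNA enters them. E2F1, CDK2 and both E cyclins were higher in S than in G1 cells in all 4 libraries. E2F1 was 1.42 to 3.57 CPM in G1 cells, 21.9 to 28.5 in S cells and 16.3 to 29.1 in G2M cells. CCNE2 was 0.324 to 0.965 CPM in G1 cells and 7.01 to 18.6 in S cells, and CDK2 was 2.98 to 4.13 in G1 cells, 12.0 to 21.6 in S cells and 14.6 to 25.1 in G2M cells. CCNE1 was 4.01 to 5.88 CPM in G1 cells and 12.9 to 16.6 in S cells.

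CDK6 showed no such rise from G1 to S, except in shScr day 3 (log2 ratio of S over G1 cells 0.74, 0.36 to 1.11). With phases from counts that were not thinned, that value was 0.39 (-0.26 to 0.98), on 24 S cells. By the thinned calls, CDK6 in shAPC day 3 was 92.3 CPM in G1, 81.1 in S and 78.0 in G2M cells. In shAPC day 7 it was 78.1, 73.0 and 74.7. In shScr day 3 it was 17.4, 29.1 and 21.3 CPM and in shScr day 7 26.8, 25.2 and 24.1. The shAPC/shScr log2 ratio of CDK6 was 2.41 in G1, 1.48 in S and 1.87 in G2M cells at day 3, and 1.54, 1.54 and 1.63 at day 7. It was thus higher in shAPC in each phase at each day. CCND2 at day 3 was lower in shAPC in S cells (log2 ratio -1.04, -1.67 to -0.44) and higher in G1 (0.91) and G2M cells (1.08). With phases called from counts that were not thinned, its S value turned to 0.78 (-0.26 to 1.85) and its G2M value to -0.11 (-0.66 to 0.43). CDK4 was higher in S than in G1 cells in all 4 libraries. It was 98.5 and 57.2 CPM in shScr day 3, and 104 and 92.4 in shAPC day 3. In shScr day 7 it was 113 and 59.6, and in shAPC day 7 87.0 and 70.0. The shAPC day 3 log2 ratio of S over G1 cells was 0.18 (0.0004 to 0.35). It was 0.11 (-0.23 to 0.43) with phases from counts that were not thinned.

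**Figure D5:**
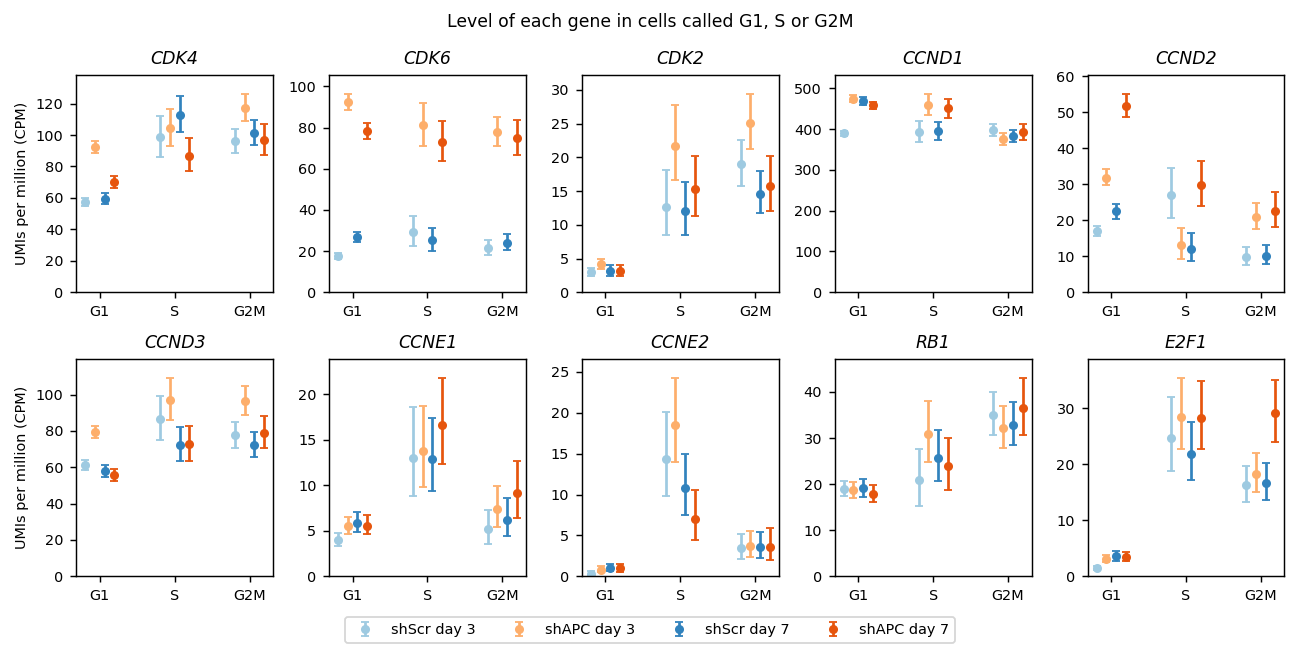
Level of each gene in CPM (vertical axis, starting at 0 and scaled per gene) in cells called G1, S or G2M (horizontal axis); points are 1 library each, coloured by group, with 95% Poisson intervals. E2F1, CCNE1, CCNE2 and CDK2 were higher in S than in G1 cells in all 4 libraries, and CDK6 was at 73.0 to 92.3 CPM in every phase of the shAPC libraries.

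Other genes of the pathway were taken from 5 lists with 53 genes. Of the CDK inhibitors, 2 of 7 reached 20 CPM, CDKN2A, the INK4 gene that encodes p16, and CDKN1A, which encodes p21, and neither was 2-fold different. CDKN1A had log2 ratios of 0.31 and 0.27. CDKN2A was 385, 455, 416 and 270 CPM (shScr then shAPC at day 3, then the same at day 7), with log2 ratios of 0.24 and -0.62. CDKN2B, which encodes the INK4 inhibitor p15, was lower in shAPC at both days, by -0.84 (-1.06 to -0.62) and -0.81 (-1.04 to -0.59). CDKN1B, which encodes p27, was higher at both, by 1.19 (0.92 to 1.47) and 0.71 (0.44 to 0.99), from 164 to 329 UMIs per library. CDKN2D, which encodes p19, was 0.61 and -0.18. CDKN1C, another inhibitor below 20 CPM, had 33, 38, 35 and 119 UMIs in the same order of libraries. Its log2 ratios were 0.39 (-0.32 to 1.11) and 1.90 (1.35 to 2.49). It was thus more than 2-fold higher in shAPC at day 7, at 1.12 CPM in shScr and 4.18 in shAPC.

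Of 11 pocket proteins, E2F and DP factors, 3 reached 20 CPM at day 3 and 2 at day 7. E2F7, a repressive E2F factor, was 5.35 CPM in shScr day 3, 24.8 in shAPC day 3, 8.71 in shScr day 7 and 10.6 in shAPC day 7. It stood high in shAPC day 3 alone, with log2 ratios of 2.21 (1.99 to 2.43) and 0.28 (0.04 to 0.52). TFDP1, the dimer partner of E2F factors, was -0.09 and -0.39. RBL1, the pocket protein p107, was -0.24 and -0.32 with intervals that include 0. E2F5 and E2F6 were 0.67 and 0.66 at day 3 and -0.30 and -0.22 at day 7.

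The E2F target genes and the later cyclins had a lower log2 ratio at day 7 than at day 3. Of 17 E2F targets, 7 reached 20 CPM at day 3, all 7 with a ratio above 0 but 4 of them above the median of all genes, and 6 at day 7, all below 0 and 2 above that median. Their medians were 0.34 and -0.21, against 0.28 and -0.10 over all genes. RRM2, a subunit of ribonucleotide reductase, was 0.04 and -0.58, and TK1, thymidine kinase, was 0.34 and -0.54. The replication factor CDC45, which did not reach 20 CPM, was 0.11 and -0.32. The replication genes CDC6, MCM4 and MCM3 did not reach 20 CPM either. They were 0.82, 0.75 and 0.73 at day 3, and -0.18, 0.07 and 0.006 at day 7. Of 8 other CDKs and cyclins, 5 were tested at day 3 with a median of 0.39, and 6 at day 7, all below 0 with a median of -0.54. CCNB1, the mitotic cyclin B1, was the 1 of them at least 2-fold lower at day 7, at 36.7 CPM in shScr and 17.2 in shAPC (-1.09, -1.25 to -0.94). CCNB2 was -0.81, MNAT1, a subunit of the CDK-activating kinase, -0.64, CDK1 -0.49 and CCNA2 -0.47 at day 7, against 0.23, 0.39, 0.52 and 0.51 at day 3. Among cells of at least 2000 UMIs, the share called G2M was 22.4% in shScr day 7 and 15.6% in shAPC day 7. The G2M list behind the calls was used in full, so that any gene of this paragraph on that list also helped to set the share. The part of this share in the values above was not tested.

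Of 10 genes for activators and turnover, CKS1B, a CDK-binding subunit, was 0.08 at day 3 and -0.98 at day 7. CDC25A, a phosphatase that activates CDKs, was -0.01 and -0.56. AMBRA1, the adaptor of a ubiquitin ligase that degrades D cyclins, was 0.65 and 0.43, FBXO31, an F-box protein tied to cyclin D1 turnover, was 0.76 at day 3, and SKP2, the F-box protein for p27, was 0.59 at day 3. The day 3 values of these 3 lie above the median of all genes.

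The genes that start within 1 Mb of CDK6 did not share its pattern at both days. Of 21 listed, 7 reached 20 CPM, and their log2 ratios ran from -0.07 to 1.19 at day 3 and from -0.66 to 0.23 at day 7. SAMD9 and SAMD9L were the 2 that were at least 2-fold higher at day 3, at 1.15 and 1.19, and were -0.33 and -0.66 at day 7. FAM133B, the nearest, was 0.78 and -0.05. The antisense gene AC002454.1 overlaps the start of CDK6 and had 72, 156, 72 and 93 UMIs (shScr then shAPC at day 3, then the same at day 7), few beside those of CDK6 (743, 3106, 800 and 2190). Around CDK4, 13 of 59 genes reached 20 CPM, and DDIT3, a stress-response transcription factor, was 3.42 at day 3 and -0.51 at day 7, while CTDSP2 was -0.79 and -0.73. TSPAN31 and MARCH9 overlap CDK4 on the opposite strand, with 356 to 644 and 7 to 133 UMIs per library.

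The 5 genes whose levels over the 4 libraries were most like those of CDK6, by Euclidean distance of centred log2 values among 5299 genes, were BTG2 (0.41), RABL6 (0.51), KRT34 (0.63), MT1F (0.64) and IGF2BP3 (0.73). BTG2, an anti-proliferative gene and p53 target, was 7.31, 31.7, 10.6 and 22.7 CPM in the same order of libraries. RABL6 was 26.8, 81.0, 28.6 and 71.4 CPM. The nearest member was CCND2 at 1.08, and the other 8 lay at 1.53 to 1.92, where the median of all genes was 1.83. Over both days, 9 of 4448 genes (0.202%) were at least 2-fold higher in shAPC, CDK6 among them.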

How the data were processed

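The authors deposited raw UMI counts per gene and cell barcode for 4 libraries, aligned to GRCh38 and counted with Cell Ranger. Per the file headers the version was 3.0.2 for both shScr and 3.0.0 for both shAPC libraries, so version and shRNA cannot be told apart. The labels call the virus retroviral and the kit v2, and the methods name a lentiviral vector and a V3 kit.

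Counts were summed over kept cells and scaled to CPM. The limits on cells removed 259 to 1557 barcodes per library, all by the mitochondrial limit. Doublets were not removed. Calls used log2(CPM + 1), a 2-fold limit and genes that reached 20 CPM in either library; no p-value was computed. Gene positions came from GENCODE 44 and promoters from RefSeq. The software was Python 3.11.15, scanpy 1.11.5, scipy 1.17.1, R 4.3.3, Seurat 5.3.0 (phase lists), edgeR 4.0.16 (TMM factors) and DESeq2 1.42.0 (size factors). The ratio and interval code was tested on simulated data.

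The members, lists and markers were chosen with earlier results of these data known. Named genes were the members, APC, the 3 genes of each pathway list with the largest absolute ratio at each day among those with at least 50 UMIs in both libraries, the 5 most like CDK6, and neighbours of at least 20 CPM. CDKN1A, CDKN1C and the genes that overlap CDK6 and CDK4 were added after their values were seen.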

Additional observations from a re-analysis of the deposited data

Results flagged for a closer look

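For 4 members the shAPC/shScr ratio was above 0 at day 3 and below 0 at day 7. The day 7 log2 ratio minus that of day 3 was -0.66 for CDK2, -0.40 for CCND3, -1.13 for CCNE2 and -0.11 for RB1. Over all genes the median ratio was 0.28 and -0.10. Relative to those medians CCND3 was 0.08 and 0.05 and RB1 -0.25 and 0.01. Under TMM scaling CCND3 (-0.02) and RB1 (-0.35) were not above 0 at day 3, and with thinned cells CCNE2 was 1.14 at day 7. The difference was not tested, since each group held 1 library, and the day 7 intervals of all 4 genes include 0.

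The barcodes removed by the mitochondrial limit entered no comparison of the report, but are part of the alternatives over all barcodes or with a 10% limit, and CDK6 was higher in shAPC there too. At day 3 it was 25.5 CPM in 355 shScr barcodes and 105 CPM in 259 shAPC barcodes (log2 ratio 2.04, 1.76 to 2.34). At day 7 it was 26.0 CPM in 1052 shScr barcodes and 100.1 CPM in 1557 shAPC barcodes (log2 ratio 1.94, 1.78 to 2.11).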

How the results depend on the processing

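No paired analysis was possible because each group held 1 library and the labels carry no replicate numbers; for the same reason no library could be left out. The CDK6 log2 ratio at day 3 moved from 2.25 to 1.87 with TMM factors, 1.89 with DESeq2 size factors and 1.92 with cells thinned to 2000 UMIs. At day 7 it moved from 1.59 to 1.98 as a mean over cells, 1.77 over all deposited barcodes, 1.78 under a mitochondrial limit of 10%, 1.71 without the 5% of cells with the most UMIs, 1.33 thinned, 1.29 in cells of at least 30000 UMIs and 2.04 with shScr day 3 as the control; the last 2 were chosen after seeing the data. It was above 1 in each of these settings. The count of members at least 2-fold higher at day 3 was 2 as a mean over cells, thinned or at a 1.5-fold limit, and at day 7 it was 1 in cells of at least 30000 UMIs.

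Genes at least 2-fold higher at day 3 numbered 200, against 491 with no minimum level, 37 at 100 CPM, 83 with TMM and 84 with DESeq2 factors; genes lower numbered 22, against 37, 5, 67 and 60. The share of higher calls at day 3 was 90.1%, 55.3% with TMM and 58.3% with DESeq2. These scaling counts, added after seeing the data, apply the 20 CPM minimum to rescaled levels. They replaced a first version that kept the genes tested under total UMIs, a choice made with both outcomes in view. With those genes the counts are 89 higher and 64 lower (58.2% higher) with TMM and 91 and 58 (61.1%) with DESeq2. At day 7, 36 higher became 164 with no minimum and 7 at 100 CPM, and 81 lower became 135 and 27.

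Among ratios whose interval lay on 1 side of 0, directions turned as follows, and the cause was not tested. At day 3 CCND1 was -0.16 with TMM and -0.15 with DESeq2, CCND3 -0.021 and -0.0039, and E2F1 -1.35 thinned, on few UMIs. Within shScr, day 7 over day 3, CDK6 was -0.12, CCND1 -0.32, CCND2 -0.56 and E2F1 -0.16 as means over cells, and CCND2 -0.075, CCNE2 -0.83 and E2F1 -0.25 thinned. Within shAPC CDK6 was 0.10 with TMM and with DESeq2, and E2F1 -0.018 over all barcodes and -0.0085 under the 10% limit. With phases from counts that were not thinned, the day 3 ratios turned from -1.04 to 0.78 for CCND2 and from 0.57 to -0.44 for RB1 in S cells, and from -0.08 to 0.0038 for CCND1 and from 1.08 to -0.11 for CCND2 in G2M cells. Ratios whose interval includes 0 changed sign as well, with RB1, CCNE2 and CDK2 among them. RB1 at day 3 went from 0.03 to -0.35 with TMM, -0.34 with DESeq2, -0.28 as a mean over cells and -0.58 thinned. CCNE2 at day 7 went from -0.38 to 1.14 thinned. These thinned values rest on few UMIs. CDK2 at day 7 went from -0.05 to 0.36 in cells of at least 30000 UMIs.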
